A study of Mus musculus with 16 samples.

Results

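Clones of iHAC2-iPS cells, named 2-B1, 2-C6, 2-E and 2-N, were compared with the mouse embryonic stem (ES) cell lines B6 ES and TT2, so that 6 of the 16 arrays of the study, 4 of iHAC2-iPS cells and 2 of ES cells, enter the comparison. The clones were chosen by their label, not by a measured value. They are induced pluripotent stem (iPS) cells made from mouse embryonic fibroblasts (MEFs) of the strain C57BL/6 (C57BL/6-J in the study's methods), into which iHAC2 was moved from hamster donor cells by microcell-mediated chromosome transfer. iHAC2 is a human artificial chromosome that replicates beside the host's own chromosomes. It carries duplicated cassettes of Klf4, c-Myc, Sox2 and Oct4 cDNAs, each behind a CAG promoter and flanked by HS4 insulators, and, unlike iHAC1, 2 more copies of Oct4 and a short hairpin RNA against p53 behind an H1 promoter. It also codes for EGFP. The cells had received mimics of ES cell microRNAs during reprogramming, and each clone is 1 subline that carries the vector. B6 ES is of C57BL/6 background and TT2 comes from C57BL/6 x CBA F1 mice. All were grown with LIF on mitomycin C-treated feeder fibroblasts. Descendants of the 4 clones that lost the vector were used as a further reference. These iHAC-free iPS lines are F-B1 (from 2-B1), F-C5 (from 2-C6), F-E4 (from 2-E) and F-N7 (from 2-N). Their difference from the clones shares the iHAC2-iPS arrays with the main comparison, so both are set side by side without a count of what they share.

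Mouse ES cells are held in the naive state by Oct4 (the gene Pou5f1), Sox2 and Nanog with a circle of helper factors such as Esrrb, Klf4 and Tfcp2l1, under the influence of LIF. Klf4, c-Myc, Sox2 and Oct4 supplied together can bring a fibroblast into this state, and p53, which halts or kills stressed cells, works against the conversion. In fully converted cells the cell's own genes take over and the supplied factors are no longer needed.

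A log2 level is the log2 of the deposited background-subtracted signal, with the array's 75th percentile set to 0, and a difference is a difference of such levels, so that 1 unit is 2-fold. Between 54.2% and 59.9% of the spots were well above background on the iHAC2-iPS arrays, against 61.8% and 63.8% in B6 ES and TT2, and no spot was saturated. The ES arrays were read in an earlier scan session, on another slide, than the iHAC2-iPS arrays, so in any difference from ES cells the session cannot be told apart from the group, whereas the iHAC-free iPS lines lay on the same 2 slides as the clones. The labels fit their markers. All 8 ES cell markers were well above background on every iHAC2-iPS and ES array, and their mean log2 level was 2.90 to 4.01 in the clones and 3.90 to 4.06 in the ES lines, against -4.78 in MEFs. The vector carries the markers Pou5f1 and Sox2 itself, so their detection in the clones cannot by itself speak for the label. The 10 fibroblast markers, which feeder cells also express, were likewise measured on every array, at a mean of 1.60 to 3.61 in the clones, 1.11 to 2.43 in the ES lines and 4.26 in MEFs. In bulk RNA, fewer cells of a type and less RNA per cell cannot be told apart.

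Of 31415 probes tested in limma's fit of all 16 arrays, 2113 (6.73%) were called, that is, at least 2-fold different with a Benjamini-Hochberg adjusted p under 0.05. With 1 probe for each of 21109 genes, 721 genes (3.42%) were higher and 610 (2.89%) lower in the clones than in the ES lines. The median difference of all genes was 0.07, and from the mean of the ES lines it was 0.15 in 2-B1, 0.01 in 2-C6, 0.09 in 2-E and 0.05 in 2-N. Most calls were modest in size, with 173 higher and 150 lower by at least 4-fold and 38 higher and 41 lower by at least 8-fold. Among all genes, 4468 (21.2%) lay higher in every clone than in both ES lines and 3338 (15.8%) lower, and 1316 of the called genes were of this kind. No ES array was well above background for 188 of the higher genes, and no clone for 144 of the lower ones. For 55 of the higher genes no clone was well above background either. In all, 57 called genes were not well above background on any array of the 2 groups. Among the 14359 genes measured on all 6 arrays, 491 were higher and 392 lower, with a median of 0. Against the iHAC-free iPS lines, 48 genes (0.227%) were higher and 117 (0.554%) lower in the clones. In probes this was 242, or 136 when each clone was paired with its descendant as a block. The 2 ES arrays limit all that follows. Without B6 ES 370 probes were called and without TT2 333, and with the other groups left out of the fit the count was 20. Of 113 called genes followed through every setting, 30 remained called without B6 ES, 29 without TT2 and 7 when the fit held the compared groups alone, and none changed direction.

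The targeted gene is given before the others. Trp53, which codes for p53, had a log2 level of 0.55 in 2-B1, 1.38 in 2-C6, 0.66 in 2-E and 1.03 in 2-N, against 2.16 in B6 ES and 1.99 in TT2. The groups did not overlap, and Trp53 was 2.25-fold lower in the clones, with a log2 difference of -1.17 (standard error 0.30, limma's adjusted p = 0.0296). In the iHAC-free iPS lines it lay at 1.86, 0.87, 1.86 and 1.16, from which the clones differed by -0.53 (limma's adjusted p = 0.266), with overlap. In the iHAC1-iPS clones, whose vector lacks the hairpin, the same probe lay at 0.91, 0.98, 1.18 and 1.05, and in MEFs at 0.35. The low level was thus not particular to cells with the hairpin, whose part in it was not tested. The Trp53 call against ES cells rests on 1 of 2 probes. The other, several kb away, gave -0.30 (limma's adjusted p = 0.272), and the mean of both gave -0.74, under 2-fold. It was also lost, at an adjusted p of 0.0607, without the MEF and iHAC1-iPS arrays, and at 0.152 when the fit held the compared groups alone. It was lost as well without B6 ES (0.173), TT2 (0.124), 2-B1 (0.0578) or 2-E (0.0631), where the log2 difference ran from -1.33 to -1.05 over all 6 arrays left out in turn. The probe sequences are shown because the probes of this gene, of Myc and of Hbb-bh1 read different stretches and gave different answers. They are as deposited, with positions on mm9. The called Trp53 probe lies at chr11:69403134-69403193, the other at chr11:69393959-69394017.
Trp53 probe 1: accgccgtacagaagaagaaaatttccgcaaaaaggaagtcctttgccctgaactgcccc
Trp53 probe 2: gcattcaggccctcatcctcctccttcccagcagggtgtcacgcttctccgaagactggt

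The probes of the reprogramming factors that the vector carries did not move together. Myc, a driver of growth and of ribosome production, was read by 3 probes on chromosome 15, which went in opposite directions. Probe 1 (chr15:61821417-61821476) had a log2 level of 3.67 in 2-B1, 5.6 in 2-C6, 3.52 in 2-E and 3.93 in 2-N, against 1.53 in B6 ES and 1.42 in TT2. It was 6.50-fold higher in the clones, by 2.70 (standard error 0.48, limma's adjusted p = 0.00891). Probe 3 (chr15:61820925-61820984) was also higher, by 2.90, with levels of 0.98, 3.40, 1.39 and 1.83 against -0.85 and -1.13. Probe 2 (chr15:61821516-61821576), which begins just beyond probe 1 on the genome, was lower, by -2.07 (limma's adjusted p = 0.0109), with levels of 1.00, 0.15, -0.25 and 0.34 against 2.42 and 2.33. In the iHAC-free iPS lines probe 1 lay between -0.38 and 0.26, below the ES lines, and the clones exceeded these lines by 4.16 (limma's adjusted p = 0.00134). The mean of the probes gave 1.18 (limma's adjusted p = 0.0564). Which of these bases lie in the cDNA of the vector is not given in the files.
Myc probe 1: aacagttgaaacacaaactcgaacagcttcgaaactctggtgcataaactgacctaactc
Myc probe 2: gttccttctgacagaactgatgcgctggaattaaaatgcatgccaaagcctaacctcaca
Myc probe 3: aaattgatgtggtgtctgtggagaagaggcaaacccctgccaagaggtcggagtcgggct

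The other factors were read by 1 probe each. Whether these probes read RNA of the vector, of the cell's own gene or of both was not tested. The study's quantitative RT-PCR found the factors of the vector expressed above the cells' own in iHAC2-iPS cells. Pou5f1 had a log2 level of 4.47 in 2-B1, 6.41 in 2-C6, 4.94 in 2-E and 3.89 in 2-N, against 3.56 in B6 ES and 4.00 in TT2. Its difference from ES cells of 1.15 did not pass the test (limma's adjusted p = 0.137), with 2-N between the ES lines. It was higher than in the iHAC-free iPS lines by 2.36 (limma's adjusted p = 0.0221), whose levels ran from 2.42 to 2.77. Klf4, a zinc-finger factor of the naive state as well as a vector gene, was 5.03-fold lower in the clones. Its levels were 3.16, 2.31, 2.14 and 4.65 against 5.04 and 5.76, a difference of -2.33 (standard error 0.56, limma's adjusted p = 0.0252), and from the iHAC-free iPS lines the difference was -2.61 (limma's adjusted p = 0.0254). Sox2 lay at 2.02, 1.58, 0.41 and 3.62 against 3.73 and 3.36, a difference of -1.64 that did not pass (limma's adjusted p = 0.095). Its level in 2-N was between those of the ES lines.

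**Figure D1:**
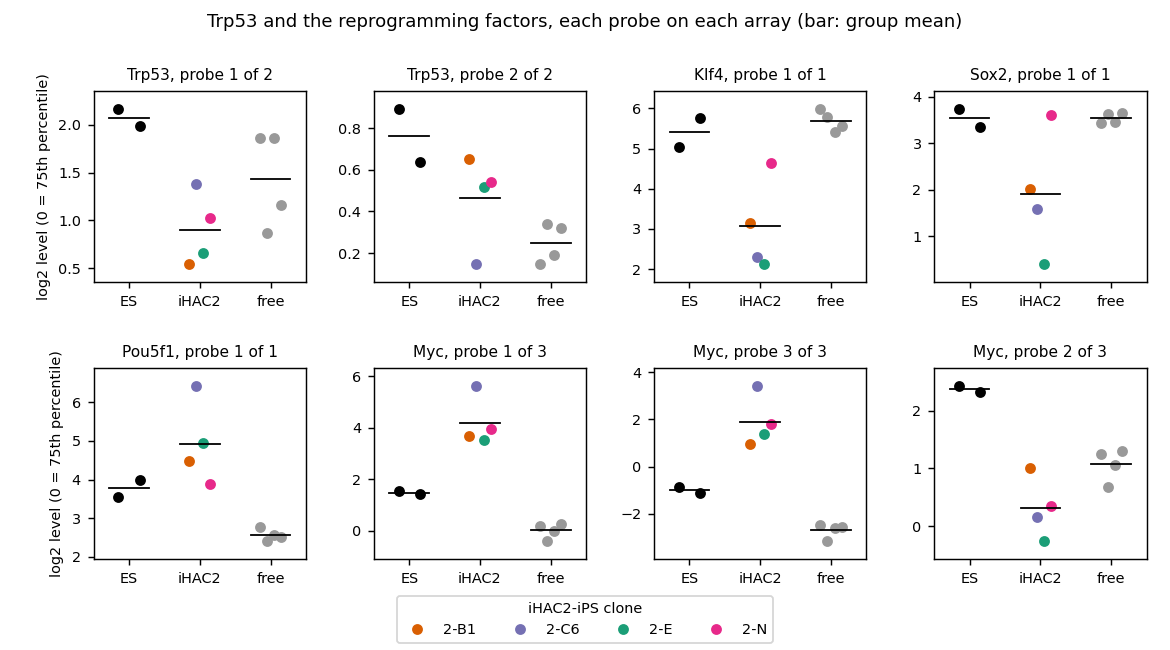
Log2 level (vertical axis, 0 at the array's 75th percentile, with a scale of its own in each panel) of every probe of Trp53, Myc, Pou5f1, Sox2 and Klf4 on the iHAC2-iPS, ES and iHAC-free iPS arrays, with 1 point for each array and a bar at the group mean. Myc probes 1 and 3 lay higher in the clones than in the ES lines and probe 2 lower, by 2.70, 2.90 and -2.07.

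Hypoxia response genes were among the higher genes. When oxygen is short, the prolyl hydroxylases no longer mark the HIF factors for destruction, and these raise genes for glucose use, vessel growth and mitochondrial turnover through sites that hold the letters ACGTG. Of 20 hypoxia response genes tested, 8 were higher in the clones than in the ES lines and 0 lower, against 3.42% and 2.89% of all genes. Their median difference was 1.17, beside 0.07 for all genes, and it was 0.84 in 2-B1, 0.82 in 2-C6, 1.05 in 2-E and 1.14 in 2-N. In the iHAC-free iPS lines the median difference from ES cells was also positive, at 0.74, 0.93, 0.65 and 0.83, and the clones exceeded them by a median of 0.25, with only Ndrg1 called among the 20. The number of higher genes was 8 to 11 under the alternative processing of all arrays. It fell to 4 without B6 ES, 3 without TT2 and 0 when the fit held the compared groups alone.

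Bnip3, which directs mitochondria to autophagy, had a log2 level of 4.32 in 2-B1, 3.55 in 2-C6, 4.73 in 2-E and 4.48 in 2-N, against 2.33 in B6 ES and 2.22 in TT2. It was 3.99-fold higher, by 2.00 (standard error 0.27, limma's adjusted p = 0.00322). Ndrg1, a stress-induced gene linked to differentiation, stood at 3.56, 3.59, 4.75 and 3.51 against 1.07 and 2.08, which is 4.85-fold higher (limma's adjusted p = 0.00517). It was also higher than in the iHAC-free iPS lines, by 1.33 (limma's adjusted p = 0.0463). Egln3, a prolyl hydroxylase that HIF itself induces, was 3.22-fold higher, with 1.99, 2.42, 2.87 and 2.57 against 0.99 and 0.55. P4ha1, a collagen prolyl hydroxylase, was 3.17-fold higher, with 2.19, 1.42, 2.48 and 1.92 against 0.16 and 0.52. Ero1a, an oxidase of protein folding in the endoplasmic reticulum, was 3.08-fold higher, with 1.74, 1.60, 2.06 and 1.51 against 0.14 and 0.06. For each of these 5 genes every clone lay above both ES lines. The angiogenic genes Adm and Vegfa were 3.55-fold and 2.23-fold higher, and Mxi1, a repressor in the Myc network, was 2.27-fold higher. Among genes that did not pass, Ankrd37 had a difference of 1.79, P4ha2 of 1.22 and Ddit4 of 1.28, while Pdk1 was at 0.11 and Car9 at -0.38. Of the factors themselves, Hif1a had a difference of -0.83, under 2-fold, and Epas1 of -0.26.

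The RefSeq promoters of 4 called hypoxia genes are shown, from 250 bases before to 50 after the transcription start on GRCm38.p6, with each ACGTG on either strand in capitals (an overlapping pair reads CACGTG). Bnip3 is at chr7:138909457-138909756 on the minus strand, Egln3 at chr12:54203825-54204124 on the minus strand, P4ha1 at chr10:59323046-59323345 on the plus strand and Ero1a at chr14:45318523-45318822 on the minus strand.
Bnip3: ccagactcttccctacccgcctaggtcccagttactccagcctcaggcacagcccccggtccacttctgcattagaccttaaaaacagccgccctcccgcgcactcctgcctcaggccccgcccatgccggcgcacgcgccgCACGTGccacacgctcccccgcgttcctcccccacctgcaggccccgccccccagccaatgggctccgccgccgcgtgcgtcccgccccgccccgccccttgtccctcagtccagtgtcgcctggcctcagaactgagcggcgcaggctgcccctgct
Egln3: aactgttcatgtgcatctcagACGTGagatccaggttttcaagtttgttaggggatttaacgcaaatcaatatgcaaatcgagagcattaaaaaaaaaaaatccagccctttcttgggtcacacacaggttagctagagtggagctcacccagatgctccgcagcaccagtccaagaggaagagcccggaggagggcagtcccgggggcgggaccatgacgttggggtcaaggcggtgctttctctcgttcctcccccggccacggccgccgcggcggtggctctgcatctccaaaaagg
P4ha1: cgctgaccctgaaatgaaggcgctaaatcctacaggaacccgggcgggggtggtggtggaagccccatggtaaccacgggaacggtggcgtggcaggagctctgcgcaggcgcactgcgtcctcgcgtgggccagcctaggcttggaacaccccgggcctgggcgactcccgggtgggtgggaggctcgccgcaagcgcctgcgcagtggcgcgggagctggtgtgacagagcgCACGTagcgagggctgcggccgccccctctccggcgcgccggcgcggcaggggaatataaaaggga
Ero1a: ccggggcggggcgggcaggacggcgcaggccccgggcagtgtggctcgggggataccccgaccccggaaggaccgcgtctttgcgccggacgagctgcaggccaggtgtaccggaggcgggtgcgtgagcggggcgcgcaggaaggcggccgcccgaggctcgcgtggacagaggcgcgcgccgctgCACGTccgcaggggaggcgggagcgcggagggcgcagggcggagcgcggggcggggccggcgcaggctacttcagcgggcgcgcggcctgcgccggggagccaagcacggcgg

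Of the 16 hypoxia response genes with a promoter in the table, 12 (75%) held ACGTG in this window. It was in 3541 of 13270 promoters of tested genes (26.7%) and 5886 of 27025 in the whole table (21.8%). It did not separate the genes that were called, with 6 of 7 among the called and 6 of 9 among the other hypoxia genes. Of the 6 called genes, Vegfa held the letters within sequence that codes for its protein, so that window is not an upstream promoter. All genes called higher held ACGTG in 27.2% and those called lower in 25.5%. The letters also make part of the E-box CACGTG, which MYC and other factors bind and which 1420 of the promoters of tested genes held. They were in 22 of 33 promoters of germline genes (66.7%), a list with no higher call.

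Glycolysis, which turns glucose into pyruvate and lactate, was higher at several of its steps. Of 23 genes tested, 6 were higher and 0 lower, beside 3.42% and 2.89% of all genes. The median difference was 0.63, and 13 lay higher in every clone than in both ES lines, beside 21.2% of all genes. The phosphofructokinases Pfkp and Pfkl, which commit glucose to the pathway, were 3.16-fold and 2.38-fold higher. Probe 3 of Pfkp, measured on all 6 arrays, gave a difference of 0.01. The aldolase Aldoc was 4.30-fold higher, with log2 levels of 2.44, 1.73, 3.37 and 2.95 in 2-B1, 2-C6, 2-E and 2-N against 0.29 and 0.74. Tpi1 was 2.06-fold higher, the kinase Pgk1 2.50-fold (8.0, 7.67, 8.22 and 7.87 against 6.66 and 6.56) and the enolase Eno2 3.92-fold. These 6 are enzymes of the upper and middle pathway and 1 enolase. The hexokinase Hk2 (0.11), Gapdh (0.32) and the lactate dehydrogenase Ldha (0.30) did not pass. Gpi1 (0.83) and Aldoa (0.66) had an adjusted p under 0.05 in limma's fit but differed by less than 2-fold. The median over the list was 0.51 in 2-B1, 0.31 in 2-C6, 0.81 in 2-E and 0.71 in 2-N, and against the iHAC-free iPS lines it was 0.30 with no call. With 1 array left out the list kept 1 higher gene without B6 ES and 2 without TT2. The 40 subunits of oxidative phosphorylation had no call, at a median of 0.09.

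**Figure D2:**
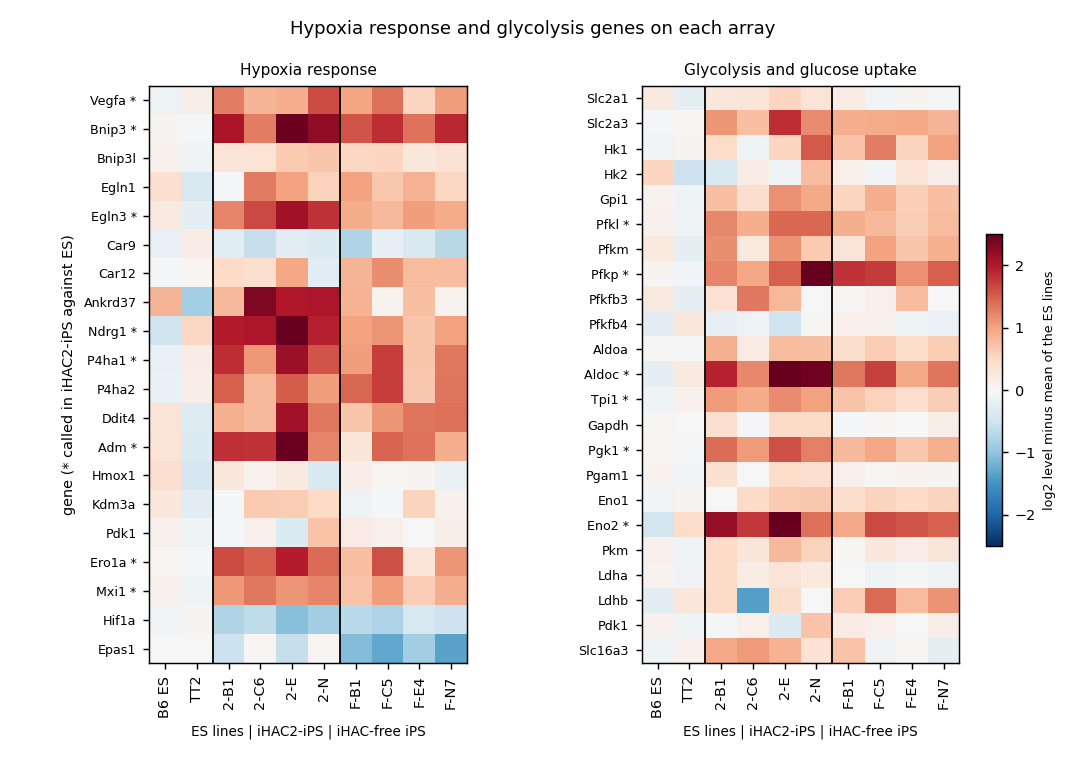
Log2 difference from the mean of the ES lines for each gene of the hypoxia and glycolysis lists (rows) on each iHAC2-iPS, ES and iHAC-free iPS array (columns), with colours from -2.5 to 2.5 and a star on genes called against ES cells. The called genes are positive in all 4 clones, and the medians of the 20 hypoxia genes in the clones run from 0.82 to 1.14.

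The targets of p53 were not lower beside the lower Trp53 signal. Of 36 genes of the p53 list, 3 were higher, beside 3.42% of all genes, and Trp53 itself was the only lower one. None of the 3 was called without either ES line, 2-B1 or 2-E. The median difference was 0.49, at 0.53, 0.28, 0.71 and 0.30 in the clones. Btg2, an antiproliferative gene, was 2.22-fold higher, with 1.44, 0.83, 1.82 and 0.86 against 0.16 and 0.02. The death receptor Eda2r was 2.19-fold higher and the xylulose reductase Dcxr 2.76-fold. Eda2r was called by 1 of 3 probes, and the others gave 0.17 and 0.22. For Dcxr, 1 of 3 probes gave 0.02. Cdkn1a, the p21 inhibitor of cell cycle kinases, had a difference of 0.91 (limma's adjusted p = 0.0433), and the apoptosis gene Bbc3 one of 0.92 (limma's adjusted p = 0.0397), both under 2-fold. The study measured p53, Ink4a, Arf and Cip1 (Cdkn1a) by quantitative RT-PCR. It reported such anti-proliferative genes as near the ES cell level in iHAC2-iPS cells, and not raised. Mdm2, the ligase that degrades p53, was at 0.24 and Bax at -0.43. In all, 18 of the 36 lay higher in every clone than in both ES lines and 5 lower, beside 21.2% and 15.8% of all genes. From the iHAC-free iPS lines the median difference was 0.25 with no call.

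Of the core pluripotency factors Pou5f1, Sox2, Nanog and Sall4, 0 were called, and their levels varied between the clones. Nanog had a log2 level of 0.63 in 2-B1, -0.85 in 2-C6, -0.05 in 2-E and 2.02 in 2-N, against 1.91 in B6 ES and 2.43 in TT2, a difference of -1.73 (limma's adjusted p = 0.122). The level in 2-N lay within the range of the ES lines. Among 19 further transcription regulators of the naive state, 2 were lower, beside 2.89% of all genes. They were Klf4 and Zfp42. Zfp42, the Rex1 gene, was 8.47-fold lower by the fitted difference of -3.08 (limma's adjusted p = 0.0429), with 0.46, 0.80, -0.37 and 2.92 against 2.89 and 5.18, so that 2-N lay just above B6 ES. By quantitative RT-PCR the study placed the pluripotency markers of most iHAC2-iPS lines near the ES cell level, and its summary graded them as moderate. The median of the 19 was -0.80 over the group, -0.43 without 2-E and -1.25 without 2-N, and the lower genes numbered 5 without 2-N, 3 without 2-C6, 1 without 2-B1 or 2-E and 0 without either ES line. In 2-B1, 2-C6, 2-E and 2-N it was -0.94, -0.61, -1.66 and 0.17. Esrrb, for one, stood at 1.86, 1.35, 0.94 and 3.89 against 2.83 and 3.07, and Tfcp2l1 at 1.73, 0.66, 1.29 and 4.03 against 2.98 and 3.25. In these genes 2-N was the highest clone and lay above the ES lines, and the other clones lay below them. Klf2 did not show this, with 6.87 to 7.22 in the clones and 6.86 to 7.34 in ES cells.

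Genes that act downstream in ES cells showed the same spread. Of 24 such genes, 3 were lower and 0 higher, but 9 were lower without 2-N, 5 without 2-C6, 2 without 2-B1 or 2-E and 0 without either ES line. Over all genes 2.89% were lower and 3.42% higher. The median of the list was -1.60 in 2-B1, -1.26 in 2-C6, -1.78 in 2-E and -0.13 in 2-N. Khdc3, a protein of the egg and early embryo, had -5.32, -4.52, -7.30 and 0.24 against 3.41 and 1.65, and was well above background in 2 of the 4 clones, so that its difference of -6.76 (limma's adjusted p = 0.0192) has no measured size. Calcoco2, an autophagy receptor, was 8.38-fold lower, with -1.87, -1.99, -1.90 and 1.39 against 2.14 and 1.81. Manba, a lysosomal mannosidase, was 2.91-fold lower. Dppa3 had a difference of -2.57 that missed the threshold (limma's adjusted p = 0.0552). Dppa5a (-0.19), Utf1 (-0.29), Dppa4 (-0.30) and Tdgf1 (0.20) were near the ES level. Among 16 genes of the formative and primed states, which follow the naive state, Sox11 was 2.64-fold higher, by 1 of 6 probes whose signs differ, and Sall2 5.06-fold lower, and the median was 0.09, 0.00, -0.16 and -1.28 in the 4 clones. Fgf5, a marker of the formative state, stood at 2.70, 1.09, 0.35 and -4.85 against 0.49 and 2.92. The sialomucin Podxl, a surface protein of stem cells, was 3.25-fold higher, the only call among 15 surface markers.

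Germline genes, several of which ES cells express at low levels, had a median above the ES level in 2-N and below it in the other clones. Of 36 tested, 2 were lower, beside 2.89% of all genes. They were Prdm1, a founder of primordial germ cells, by 2.08-fold, and Nanos3, at least 2.84-fold lower because no clone was well above background. The count rests on single arrays, with 13 lower without 2-N, 1 without 2-C6 or B6 ES and 0 without TT2. The list median was -0.27 in 2-B1, -1.19 in 2-C6, -0.59 in 2-E and 0.60 in 2-N. Ddx4, the germ cell helicase Vasa, stood at -1.91, -2.61, -2.86 and 1.51 against 1.55 and 0.60, a difference of -2.54 that did not pass (limma's adjusted p = 0.0863). Dazl, an RNA-binding protein of germ cells, was well above background in 2-N alone among the clones, at -2.01, and on both ES arrays, at -2.64 and -3.38. Stk31, Taf7l, Sycp1 and Fkbp6 were likewise well above background on 1 iHAC2-iPS array and on both ES arrays. Zscan4c, of the bursts of 2-cell-stage genes in ES cultures, was at least 2.53-fold lower, with no clone well above background.

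**Figure D3:**
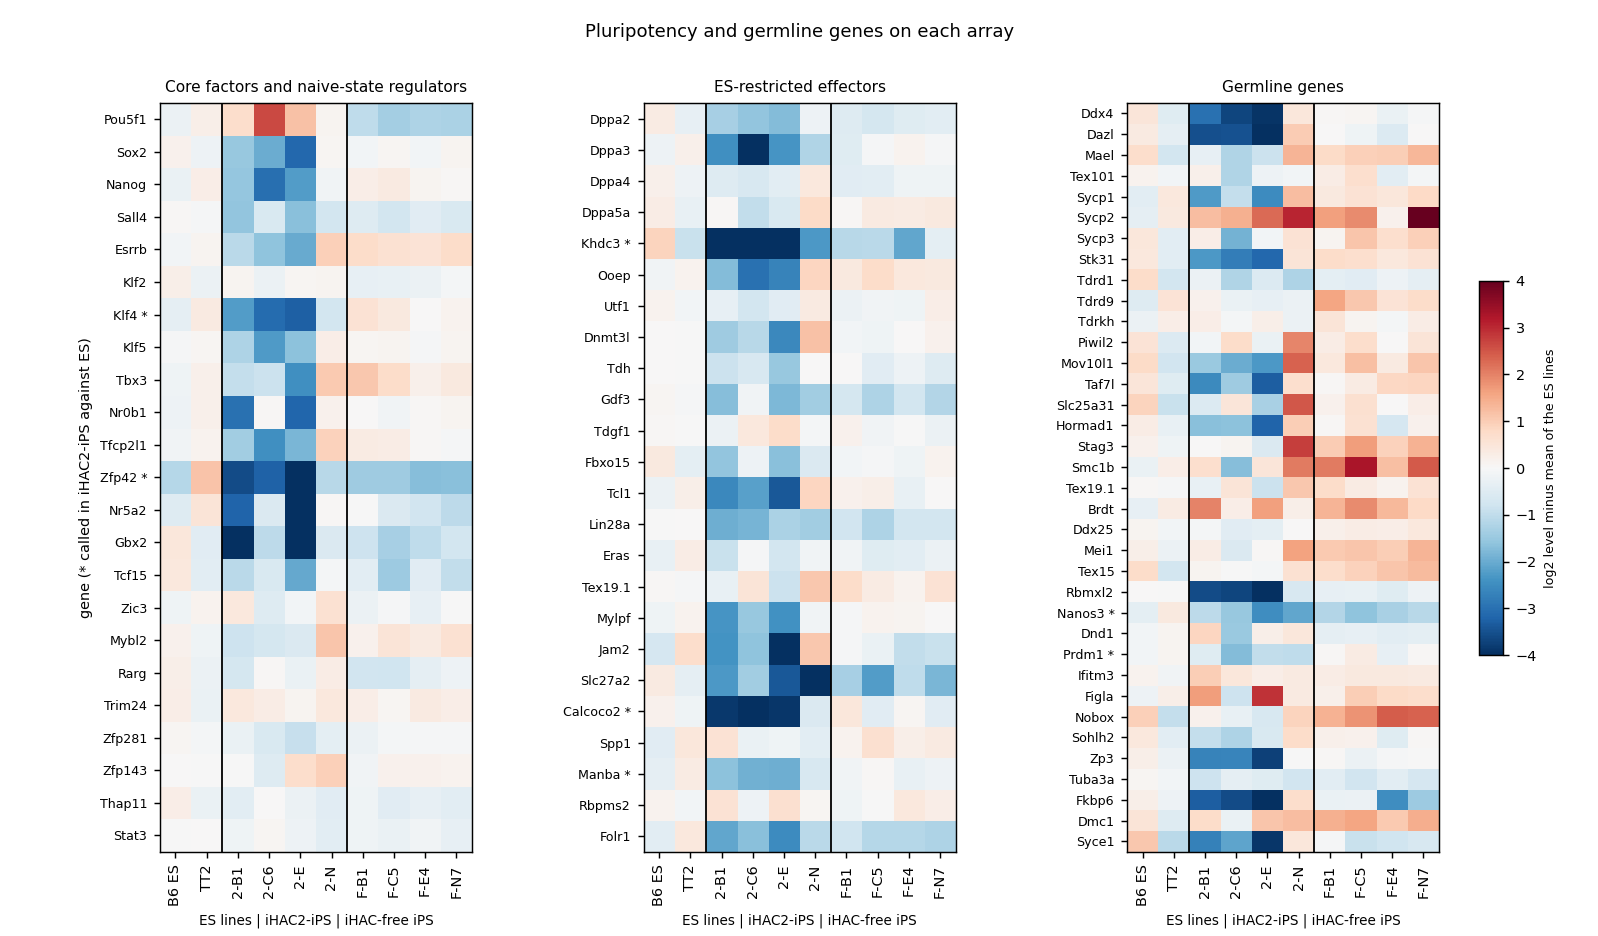
Log2 difference from the mean of the ES lines for the core and naive regulators, ES effectors and germline genes (3 panels, genes in rows) on each iHAC2-iPS, ES and iHAC-free iPS array (columns), with colours from -4 to 4 and a star on called genes. The column of 2-N differs from those of the other clones, with list medians of 0.17 for naive regulators and 0.60 for germline genes, above the ES mean, where the other clones have negative medians.

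The trophectoderm list, of genes for the outer layer that forms the placenta, held 7 lower and 1 higher of 24 tested genes, beside 2.89% and 3.42% of all genes, and 1 lower without B6 ES and 3 without TT2. The X-linked homeobox genes Rhox9 and Rhox6, expressed in placenta and gonads, showed the greatest fitted decreases among called genes measured on all 6 arrays. Rhox9 (chromosome X of mm9, 35254147 to 35254206) had -1.88, -1.76, -2.86 and -0.06 in the clones against 4.54 in B6 ES and 2.34 in TT2, and 2.14 to 2.88 in the iHAC-free iPS lines. It was 33.8-fold lower than in ES cells (log2 difference -5.08, standard error 0.69, limma's adjusted p = 0.00322) and 17.1-fold lower than in the iHAC-free iPS lines. Rhox6 was 26.3-fold lower than in ES cells, with -2.12, -1.01, -2.53 and 0.30 against 4.58 and 2.18. The groups lay well apart for both genes, although B6 ES stood above TT2. As they are close relatives in 1 cluster, which of them a probe reports cannot be told apart.

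Cdx2, which sets up the trophectoderm, was not well above background in any clone and lay at -1.11 and -2.01 in ES cells, at least 9.20-fold lower in the clones. Gata3 and Gata2, which act beside it, were 3.38-fold and 4.03-fold lower, Tfap2c, shared with germ cells, 2.68-fold and the hormone gene Prl3d1 2.60-fold. Against the iHAC-free iPS lines, Gata3 (-1.36), Tfap2c (-1.88), Rhox6 and Rhox9 were lower as well. Elf5, a trophoblast stem cell factor, went the other way and was 4.53-fold higher than in ES cells, with -2.90, -2.72, -3.31 and -4.58 against -5.74 and -5.38, of which 3 clones and 1 ES line were well above background. The list's median was -0.32 and ran from -0.73 to 0.26 when 1 array was left out.

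Of 24 primitive and definitive endoderm genes 4 were lower and 0 higher, beside 2.89% and 3.42% of all genes, and 0 were lower without either ES line or 2-E. They were Sox7, a factor of the primitive endoderm (6.73-fold, well above background in 2 clones), Lrp2 and Cubn, which form the uptake receptor of the visceral endoderm (4.83-fold and 3.27-fold), and Afp, a yolk sac protein, which no clone showed above background (at least 1.23-fold). Lrp2 stood at -0.22, -0.60, -1.08 and -1.17 against 2.04 and 0.97. Single calls in the neural, mesoderm and Hox lists are near the share of all genes called. Among 29 neural genes the tubulin Tubb3 was 4.57-fold lower, with 0.22, 0.33, -0.19 and 0.84 against 2.50 and 2.49, and it lay at 0.87 to 1.85 in the iHAC-free iPS lines. Among 25 mesoderm genes the VEGF receptor gene Kdr was lower, with 1 clone well above background, and with Cdh5 (at least 1.2-fold) it made up the 2 lower genes among 12 endothelial ones. Of 37 Hox genes, Hoxc5 was 2.94-fold lower, and the higher call of Hoxd11 was of a probe not well above background in any clone or ES line.

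The highest bound of the comparison was that of the embryonic globin gene Hbb-bh1, and it depends on which of 2 overlapping probes is read. Probe 1 (chr7:110990307-110990366 of mm9) had log2 levels of -0.28, 1.70, 0.34 and -0.62 in the clones and was not well above background in B6 ES (-5.46), TT2 (-6.79) or any iHAC-free iPS line, so that it was at least 61.5-fold higher than in ES cells (limma's adjusted p = 0.000444). On the arrays of the 4 iHAC1-iPS clones, which carry the sister vector with the same CAG cassettes, it lay at 1.50 to 2.19, against -6.50 in MEFs and -2.39 in the retroviral line 20D17. Probe 2 (chr7:110990327-110990386) shares 40 of its 60 bases with probe 1, which stand in capitals, and was not well above background on any iHAC2-iPS or ES array, with a difference of -0.45. On the iHAC1-iPS arrays it lay at -8.09 to -5.94, against -7.03 in MEFs and -2.29 in 20D17, where both probes gave a similar level. Probe 1 was thus at -0.62 or above on all 8 arrays of cells with an iHAC vector, and probe 2 at -5.94 or below on all of them. CAG promoter constructs contain rabbit beta-globin sequence, whose part in this signal was not tested. The other erythroid genes had no call.
Hbb-bh1 probe 1: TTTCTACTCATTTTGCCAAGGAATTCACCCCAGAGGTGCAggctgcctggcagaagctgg
Hbb-bh1 probe 2: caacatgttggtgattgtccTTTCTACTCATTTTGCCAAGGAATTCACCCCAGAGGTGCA

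In the FGF pathway, which drives ES cells out of the naive state, 3 of 24 genes were lower, beside 2.89% of all genes, and 0 without either ES line. The receptor Fgfr2 was 5.36-fold lower, with -3.21, -4.45, -3.27 and -4.05 against -0.86 and -1.79, and also lower than in the iHAC-free iPS lines, by -2.53 (limma's adjusted p = 0.0356). Fgfr3 was 2.05-fold lower, and the ligand Fgf2 was not well above background in the clones. Both have another probe with a difference of opposite sign, which was not well above background on any array of the compared groups. Probe 3 of Fgfr3, measured on all 6 arrays, gave -0.86 (limma's adjusted p = 0.0412), under 2-fold. Several of the 26 Notch and Hedgehog genes tested were called, in both directions, with 0 higher without either ES line and 0 or 1 lower. The receptor Notch4 and the ligand Jag2 were 3.58-fold and 2.33-fold higher, while Shh was called higher although no array of either group was well above background. The glycosyltransferase Lfng, which tunes Notch, was at least 2.95-fold lower, and the Hedgehog target Gli1 was 3.19-fold lower. Gli1 stood at -4.0, -2.81, -4.15 and -2.70 against -1.37 and -2.11. The Wnt (43 genes), BMP (26), Nodal and Lefty (19) and LIF and Stat3 (15) lists had no call, with medians of -0.38, -0.13, 0.20 and -0.18. Notum, a secreted Wnt inhibitor outside these lists, was not well above background in any clone and at least 7.76-fold lower.

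Of 33 interferon response and antigen presentation genes tested, 3 were higher and 0 lower, beside 3.42% and 2.89% of all genes. The count was 8 without 2-N, 1 without 2-E and 0 without 2-B1 or either ES line. The median difference was 1.60 in 2-B1, 0.26 in 2-C6, 0.97 in 2-E and 0.24 in 2-N. Tap1, which carries peptides to the class I molecules, was 4.50-fold higher, with -0.61, -1.92, 0.40 and -1.71 against -3.39 and -2.86. Ifi35 was 2.64-fold higher by the fit, but 2-N, at -0.56, lay within the ES range of -1.49 to -0.38. Among all 24 genes named H2-, the mouse major histocompatibility complex on chromosome 17, 6 were higher (25.0%, beside 3.42% of all genes) and 0 lower, with a median of 0.89 that was 1.30, 0.43, 1.37 and 0.44 in the clones. These were looked at after their values had been seen, and so are described without a test of the family. The class II gene H2-Ab1 was 6.03-fold higher, with 0.27, 0.09, 1.15 and -0.34 against -2.01 and -2.60. H2-Oa was at least 11.8-fold higher, with no ES line well above background, and H2-Q4, H2-DMb1, H2-Eb1 and H2-T23 were 2.13-fold to 2.46-fold higher. From the iHAC-free iPS lines the family's median difference was 0.24 with no call. The class I genes are near-identical copies, so which copy a probe reports cannot be told apart, and TT2 carries a CBA haplotype beside that of C57BL/6. The leukocyte markers, of cells that also carry class II, lay at a mean of -2.73 to -1.81 in the clones and -2.22 to -1.94 in ES cells. They went both ways, with a difference of 1.37 for Cd68, -0.95 for Ptprc, -0.97 for Csf1r and -1.1 for Tyrobp, none of them called. The part of such cells in the H2- values was not tested.

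Y-linked genes were higher in all 4 clones. Of 8 tested, 5 were higher and 0 lower, and 3 without B6 ES. Over all genes 3.42% were higher and 2.89% lower. Eif2s3y, a translation initiation factor needed for sperm formation, had log2 levels of 2.50, 2.13, 2.66 and 2.26 against -2.20 in B6 ES and -1.69 in TT2, which is 20.2-fold higher. The helicase gene Ddx3y was 12.5-fold higher, with 1.53, 1.27, 1.30 and 0.40 against -2.58 and -2.45. The demethylase genes Kdm5d and Uty were at least 8.62-fold and 5.09-fold higher, as no ES array was well above background, and Uba1y was 8.52-fold higher with 1 ES array above background. In the iHAC-free iPS lines Eif2s3y was spread widely, from -0.81 in F-N7 to 2.43 in F-E4, and only Kdm5d was called higher in the clones than in these lines. The median of the 8 genes was 3.37. It was 1.41 with all arrays set to a common floor and 0.94 with normexp background correction, which draw dim values together. Xist, Tsix, Rlim and Ftx of the X inactivation centre had no call, nor did Zfp185, which that list also held but which lies elsewhere on the X chromosome.

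Called genes were clustered along the genome in few places. Among 1469 windows of 1 Mb of mm9 with at least 5 tested genes, 6 had at least 4 genes, and at least 30% of their genes, called in 1 direction. The rule was set after the values had been seen and has no test. The Y window, with 6 of 7 genes higher, holds the 5 called Y-linked genes above and the transcript AK053080, which had a difference of 3.51. On chromosome 4, 5 of 10 genes were lower between 145 and 146 Mb and 6 of 10 between 146 and 147 Mb, a stretch of zinc-finger genes of the KRAB type, many of which silence retroelements. Zfp980 had 0.37, 0.57, 0.12 and 1.98 against 3.31 and 3.74 and was 6.80-fold lower. Zfp987 had 1.91, 2.02, 1.68 and 3.31 against 4.85 and 4.97 and was 6.42-fold lower, and Zfp985 was 4.55-fold lower. For these 3 genes every clone lay below every iHAC-free iPS line, which in turn lay below both ES lines, and they were also called lower against the iHAC-free iPS lines.

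The median of the chromosome 4 windows was -2.03 and -2.24, and in 2-B1, 2-C6, 2-E and 2-N it was -2.31, -2.53, -2.99 and -0.98 for the latter. In a like cluster on chromosome 17, between 22 and 23 Mb, 6 of 13 genes were lower, among them Zfp943 (4.39-fold) and Zfp946 (3.89-fold), and Zfp945 was higher. Windows on chromosome 13 (62 to 63 Mb, 4 of 11 genes) and chromosome X (147 to 148 Mb, 4 of 13) made up the rest. Among all 341 genes named Zfp, 21 (6.16%) were lower and 8 (2.35%) higher, with a median of -0.21. The genes of such clusters are near-identical copies and their probes may share signal, so the members of a cluster are not separate measurements.

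The late cornified envelope genes on chromosome 3, which code for proteins of the outer skin, were lower as well. Of 12 tested, Lce1g (11.8-fold), Lce1i (10.3-fold), Lce1h (8.31-fold) and Lce1j (2.81-fold) were lower and 0 higher, beside 2.89% and 3.42% of all genes. Lce1g had -3.22, -1.49, -3.07 and -4.43 against 1.04 and -0.01. Lce1h and Lce1j were well above background in 2 and 3 of the clones. Another probe of Lce1g had a difference of opposite sign (0.21), but was well above background in only 1 clone and no ES line. From the iHAC-free iPS lines the family's median difference was -0.04 with no call. They too are close copies.

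**Figure D4:**
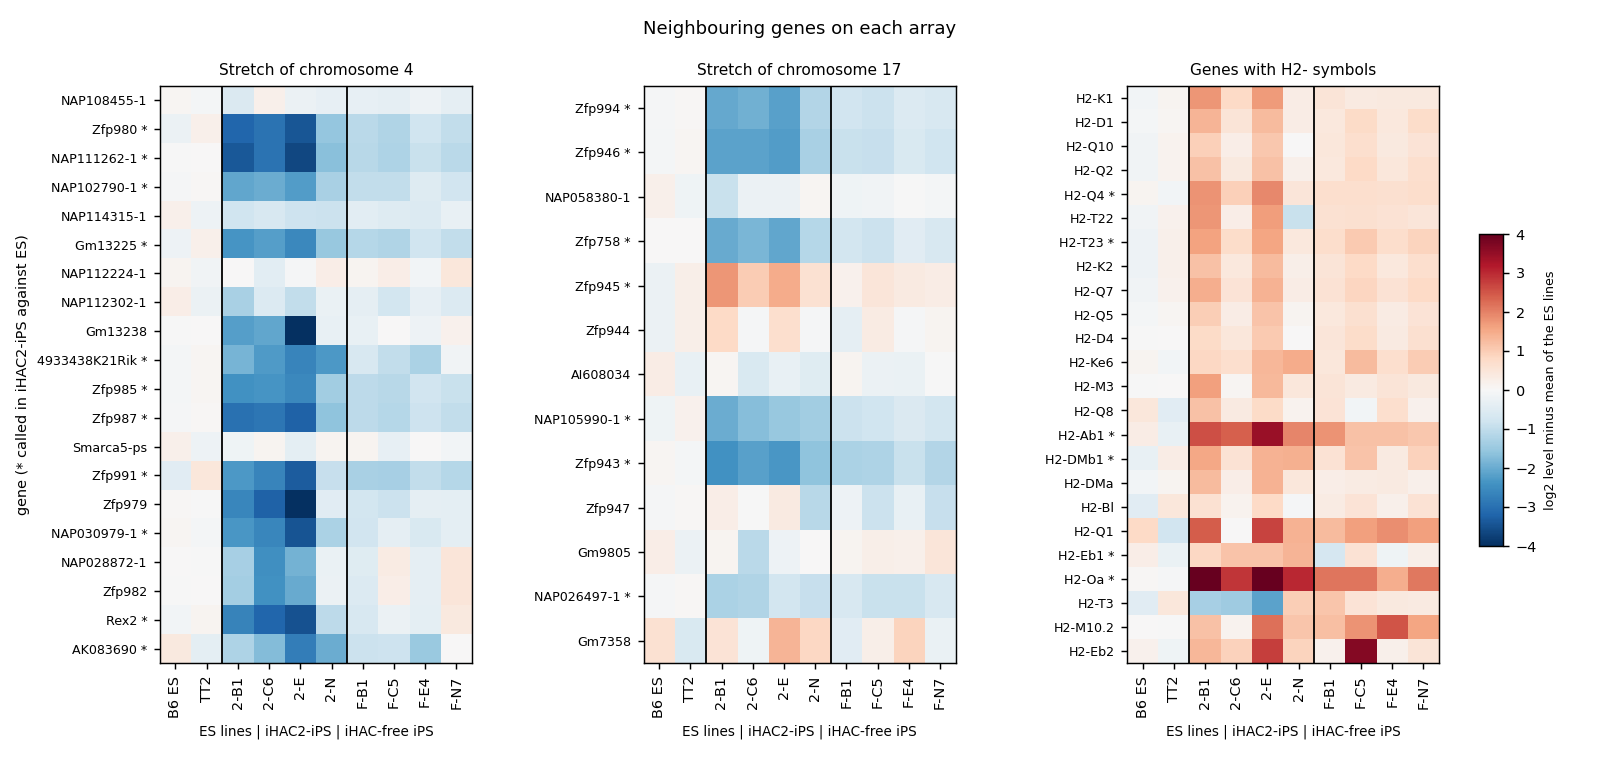
Log2 difference from the mean of the ES lines for genes of the chromosome 4 and chromosome 17 windows and for the H2- family (3 panels, genes in rows) on each iHAC2-iPS, ES and iHAC-free iPS array (columns), with colours from -4 to 4 and a star on called genes. The chromosome 4 genes are lowest in 2-E, with a median of -2.99 between 146 and 147 Mb, and the H2- genes stand highest in 2-E and 2-B1, with medians of 1.37 and 1.30.

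Ribosome biogenesis, which Myc and growth signals drive, had no called gene, but all 30 genes tested had a difference below 0. The median was -0.50, at -0.82 in 2-B1, -0.26 in 2-C6, -0.65 in 2-E and -0.26 in 2-N, and 15 of the 30 lay lower in every clone than in both ES lines, beside 15.8% of all genes. Nop56, a core protein of the particles that modify ribosomal RNA, had a difference of -0.94 (limma's adjusted p = 0.0366), under 2-fold. From the iHAC-free iPS lines the median difference was -0.06. The related Gar1, which serves telomerase too, was 2.57-fold lower.

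In amino acid metabolism, the enzymes of transsulfuration, which makes cysteine from homocysteine, were higher. Cth was 4.59-fold higher, with 3.79, 4.53, 3.75 and 4.31 against 2.26 and 1.53, and Cbs 3.43-fold, while Gcsh of the glycine cleavage system was 2.44-fold lower. Cth was also higher than in the iHAC-free iPS lines, by 1.63 (limma's adjusted p = 0.0292). Of 23 genes of the response to oxidants and metals, Nqo1 (2.25-fold) and Gsta3 (4.42-fold), both detoxifying enzymes, were lower and 0 higher. Over all genes 2.89% were lower and 3.42% higher. Chromatin genes moved little, with the cytidine deaminase Apobec1 3.13-fold higher among 17 genes of DNA methylation and Eed, of the Polycomb complex, 2.23-fold lower among 31.

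The cell architecture lists had 1 call or none each. The tight junction gene Cldn3 (4.30-fold), the laminin chain Lamb3 (3.95-fold), the integrin Itgb4 (7.11-fold), which with laminin anchors epithelia, and the muscle filament gene Des (2.94-fold) were higher. The 29 fibroblast genes had no call. Their median was 1.1 in 2-B1, 0.34 in 2-C6, 0.48 in 2-E and -0.31 in 2-N against -0.63 in B6 ES and 0.63 in TT2, so the ES lines differed among themselves by more than they did from most clones, and the part of feeder cells in these values was not tested. Of the 47 lists, with 1017 genes tested, 14 had no call. They include, besides those given above, imprinted genes, the unfolded protein and heat shock response, apoptosis regulators and cell-cycle inhibitors.

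**Figure D5:**
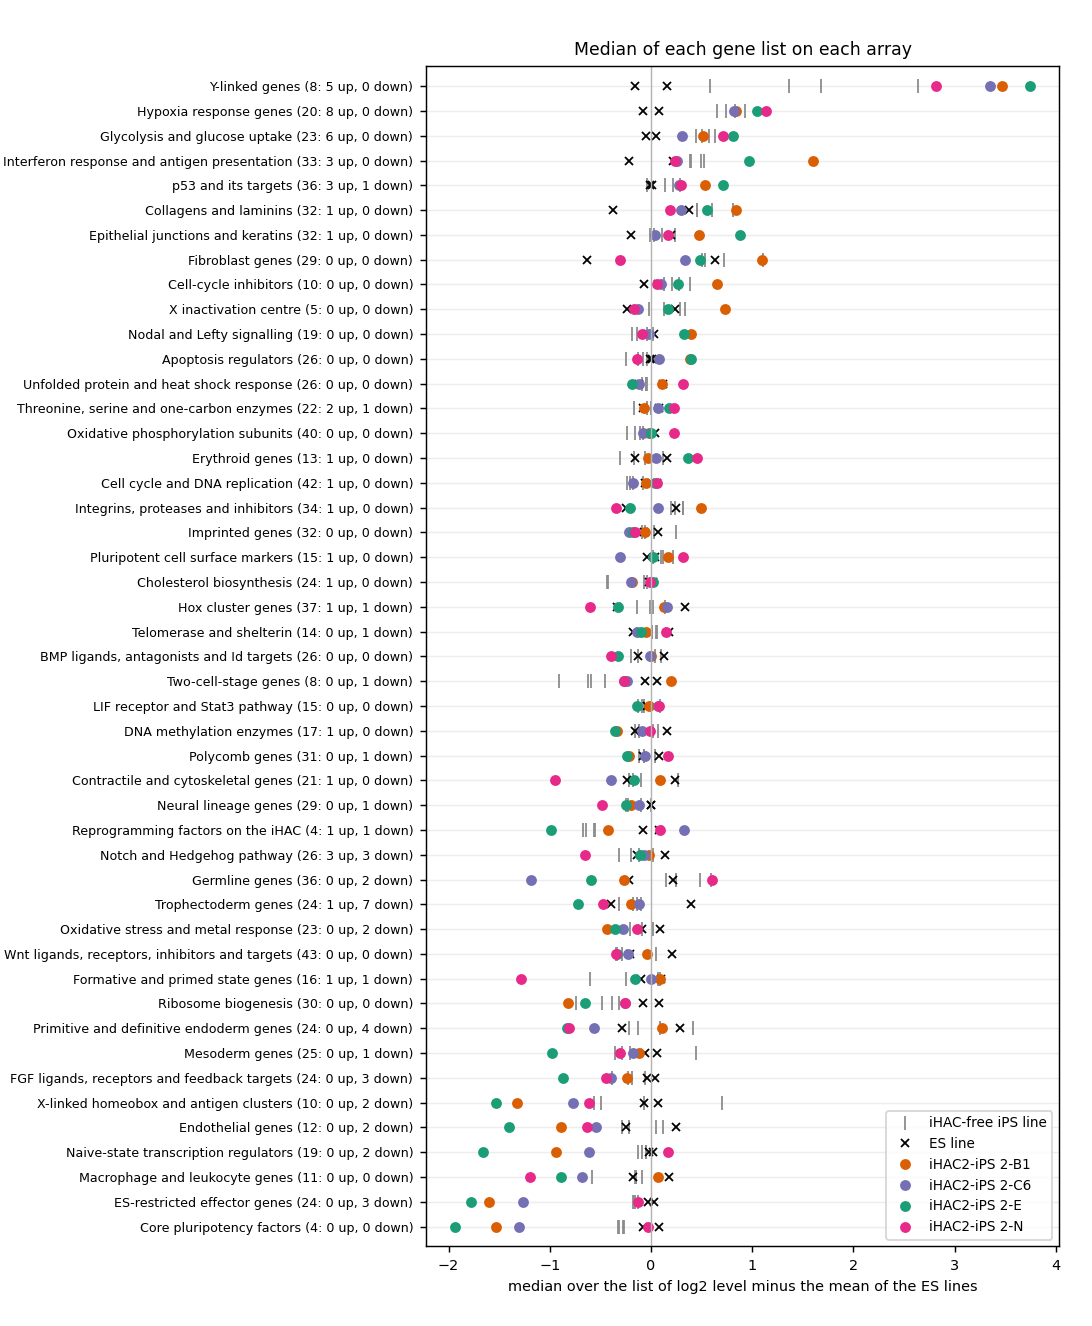
Median log2 difference from the mean of the ES lines over each of the 47 gene lists (rows), with a coloured point for each iHAC2-iPS clone, a cross for each ES line and a tick for each iHAC-free iPS line. The hypoxia list lies at 0.82 to 1.14 in all 4 clones, and the pluripotency lists are spread between clones, as from -1.66 to 0.17 for naive regulators.

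The genes with the greatest called differences among those measured on every array belong to no single list. On the higher side, the glutamine transporter Slc38a5 was 12.5-fold higher, with 1.65, 4.05, 1.37 and 1.51 against -1.38 and -1.62. Mst1, which codes for macrophage-stimulating protein, was 12.1-fold higher, with 0.04, 1.01, 0.15 and 0.49 against -3.34 and -3.01, and Zc3h6, a zinc-finger gene, 10.9-fold. Hrc, a calcium-binding protein of the sarcoplasmic reticulum, was 10.4-fold higher, the heat shock protein gene Hspb2 9.86-fold, myoglobin (Mb) 8.51-fold and Jsrp1, of the muscle junctional complex, 7.10-fold. Mb stood at -2.04, -2.79, -1.82 and -1.84 against -5.09 and -5.33. Cfap43 of the sperm flagellum (7.23-fold), the appetite hormone gene Ghrl (7.12-fold) and Morn1 (6.84-fold) completed the set. Another probe of Morn1, measured on all 6 arrays, gave 0.60, and 1 of 3 Cfap43 probes gave 0.61, neither of them called. Another probe of Ghrl was not well above background on any array of the compared groups. Zc3h6, Cfap43 and Morn1 differed little from the iHAC-free iPS lines, by -0.03, 0.46 and 0.37. Bounds were set for Inca1 (at least 5.51-fold), Ccdc158 (at least 5.16-fold) and the heat shock factor gene Hsf4 (at least 3.77-fold).

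On the lower side, Tatdn2 was 14.2-fold lower, with -3.36, -1.44, -3.42 and -2.90 against 0.51 and 1.60, and it was low in the iHAC-free iPS lines too, at -2.67 to -1.35. Its probe on chromosome 6 lies a few kb from that of Ghrl, which was higher. Cpsf4l, related to an RNA cleavage factor, was 11.2-fold lower, with -0.22, -0.77, -1.77 and 0.13 against 3.20 and 2.45, and 2.33 to 2.63 in the iHAC-free iPS lines, from which it also differed (-3.09, limma's adjusted p = 0.00419). Prtg, a receptor of the early neural plate, was 8.15-fold lower than in ES cells and 7.57-fold lower than in the iHAC-free iPS lines. The same held for 1700019A02Rik (9.72-fold and 6.09-fold) and Zfp640 (7.82-fold and 6.83-fold), whereas Dusp27, 9.10-fold lower than in ES cells, missed the threshold there (limma's adjusted p = 0.0727). Among genes with no clone above background, the muscle gene Myom2 was at least 20.3-fold lower, with 0.63 and -1.47 in ES cells, and the neurofilament gene Nefm at least 16.9-fold. BC006965 (at least 10.5-fold), the transcription factor gene Msc (at least 9.71-fold) and the protocadherin gene Pcdh8 (at least 4.63-fold) followed. Myom2 and Msc were also lower than in the iHAC-free iPS lines, while BC006965 was not above background there either.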

How the data were processed

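Total RNA of 16 cell lines was hybridised to one-colour Agilent mouse arrays, 1 array for each line. Per the file headers, the authors' scanner software deposited background-subtracted signal intensity for each spot, together with flags for spots well above background. The authors also deposited a table of log2 values centred on each probe, which were used here only as an alternative. Control spots were left out, spots of 1 probe were averaged, and each array's 75th percentile was subtracted from its log2 intensity. The 31415 probes that any of the 16 arrays showed well above background were fitted with limma 3.58.1 in R 4.3.3, with 6 groups and no covariate. Scripts also ran on Python 3.11.15 with numpy 2.4.6, pandas 2.3.3 and matplotlib 3.10.9. Called means a Benjamini-Hochberg adjusted p under 0.05 and at least 2-fold. The probe of a gene with the highest mean level over all 16 arrays stood for the gene. Where all arrays of 1 group and none of the other were well above background, a fold is a bound, taken from the bright group's mean against, per array of the other, the higher of its lowest signal well above background and the probe's own. Each clone or line is 1 culture, so p-values measure the spread between lines within the groups of the whole fit, and the number of arrays limits precision. That spread includes the iHAC1-iPS clones and can exceed that of the compared lines. For Cdh1 the standard error was 1.83, beside standard deviations of 0.41 in the clones and 0.5 in the ES lines. A gene without a call is therefore not shown to be equal.

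Genes were named from 47 lists and by a rule that takes the 15 greatest called increases and decreases without overlap among genes measured on all 6 arrays and the 8 greatest bounds each way, of which a selection is printed. The members and lists were chosen with earlier results of these data known. The ACGTG search, the H2-, Lce and Zfp families, the genome windows and a common floor of -4.3456 for all arrays were chosen after seeing the data. Of 41174 probes, 26792 were named through a RefSeq accession and 8327 kept the name in the files. Promoters came from RefSeq, GRCm38.p6, matched by symbol for 13270 tested genes. Positions of probes are those of the files, on mm9.

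Alternatives were quantile normalization, normexp on the raw spot and background intensity (offset 50), the table of log2 values, other filters and gene summaries, fewer groups, slide as a random block, and each array left out. The iHAC-free iPS lines share their line of origin with the clones, and the fit with this as a block was an alternative. Deviations of clone and descendant correlated at -0.066, -0.219, 0.0344 and 0.08. In simulated data with 100 changed probes of each size, the fit recovered 58% of changes of 2 and 83% of changes of 3 on the log2 scale, with 11 false calls.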

Additional observations from a re-analysis of the deposited data

Results flagged for a closer look

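In 8 of 160 described genes and list medians, 1 of the 4 iHAC2-iPS clones stood apart from the other clones by Dixon's criterion, which chance meets in about 1 of 20 groups. The clone was 2-C6 in 3 cases, 2-N in 3, and 2-B1 and 2-E in 1 each. Slc38a5 had a log2 level of 4.05 in 2-C6, against 1.37 to 1.65 in the other clones. Itgb4 had 3.23 in 2-C6, against 2.31 to 2.35, and Cfap43 had -1.70 there, against 0.15 to 0.44. Calcoco2 had 1.39 in 2-N, against -1.99 to -1.87, and Ifi35 had -0.56 there, against 0.77 to 0.85. Ndrg1 had 4.75 in 2-E, against 3.51 to 3.59. The median difference from ES cells of the 2-cell-stage genes was 0.20 in 2-B1, against -0.27 to -0.24, and that of the Notch and Hedgehog genes was -0.65 in 2-N, against -0.11 to -0.02.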

How the results depend on the processing

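The count of probes called between iHAC2-iPS and ES cells, 2113 with 1085 higher and 1028 lower, depended mostly on the ES arrays and on which groups shared the estimate of spread. It was 1295 with the fit and its adjustment run on 1 probe per gene alone (703 higher, 592 lower; the 721 and 610 genes given above are from the fit of all probes), 1385 with a common floor (634 higher, 751 lower), 4450 without a filter on dim probes (3087 higher, 1363 lower), 936 with normexp (441 higher, 495 lower), 20 when the fit held the compared groups alone (10 higher, 10 lower) and 3214 with slide as a random block (1780 higher, 1434 lower). Without the filter 69.4% of calls were higher and the median of all probes moved to 0.28, and with quantile normalization 42.2% were higher, against 51.3% in the main setting. With each array left out in turn the count ran from 333, without TT2, to 3722, without 2-C6, with 126 to 1948 higher and 169 to 1774 lower. Against the iHAC-free iPS lines 242 probes were called, 136 with the replicate block by line of origin and 102 with only the compared groups, and 41 (without F-N7) to 971 (without 2-N) with 1 array left out. With normexp 41.9% of these calls were higher, against 28.1%. The Trp53 difference was -0.74 with the mean of its probes, -1.17 with only the compared groups, -1.17 without the MEF and iHAC1-iPS arrays, and -1.33 to -1.05 with 1 array left out. The median of the trophectoderm list ran from -0.73 to 0.26 and that of the hypoxia list from 0.95 to 1.20 with 1 array left out. The cause of these changes was not tested. Of 113 called genes followed, 90 kept their call with normexp, 90 with a common floor, 105 with quantile normalization and 3 in every alternative, and 0 reversed. The ES lines lay on another slide and in another scan session than the clones, which cannot be told apart from the group. Low signal limits the Y-linked, germline and lineage genes, for many of which 1 group was not well above background.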
